A study of Mus musculus with 18 samples.

Results

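The genes described here are 10 markers of retinal ganglion cells, taken by name from 55487 genes in a count table of sorted mouse retina. They are Rbpms, Pou4f1, Pou4f2, Nefl, Nefm, Nefh, Sncg, Thy1, Slc17a6 and Stmn2. Retinal ganglion cells are the output neurons of the retina, whose axons leave the eye as the optic nerve. They form a small share of retinal cells, most of which are rods. Pou4f1 and Pou4f2 encode the POU transcription factors that specify ganglion cells and maintain them, Rbpms an RNA-binding protein used as a ganglion cell label, and Nefl, Nefm and Nefh the light, medium and heavy neurofilament proteins that fill large axons. Slc17a6 encodes the glutamate transporter VGLUT2, Sncg gamma-synuclein, Thy1 a surface glycoprotein used to purify ganglion cells, and Stmn2 stathmin-2, a tubulin-binding protein of growing and regenerating axons.

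Retinal cells were flow sorted into 2 fractions after dead cells, which take up DAPI, had been gated out. The CD11b-negative fraction, called retina here, should hold the ganglion cells together with all other non-myeloid cells. The CD11b-positive fraction, called microglia here, holds the cells that carry this myeloid integrin. Both fractions came from Bmal1-mg/-mg mice, named knockouts here, in which microglia were to lack the circadian clock gene Bmal1, and from Bmal1f/f mice, whose floxed Bmal1 alleles should be intact and which are named controls. There were 5 knockout retina, 4 control retina, 5 knockout microglia and 4 control microglia libraries. The driver of the deletion, the age, the sex and the time of collection are not given in the sources used here, and neither is whether the replicates came from separate animals, so p-values measure only the spread between these libraries.

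The libraries held between 32277156 and 47563119 counts, and 3 counts in 1 library amounted to 0.0592 to 0.101 CPM, the count scaled to library size with TMM factors. The sorted fractions carried their own markers. The summed level of 15 microglia markers was 8.30 to 18.5 CPM in knockout retina, against 65843 to 72455 CPM in knockout microglia, and 14.5 to 25.7 CPM in control retina, against 65412 to 73413 CPM in control microglia. The summed level of 15 rod genes in microglia was 6.40% of that in retina among knockouts and 4.75% among controls. Arntl, the gene symbol of Bmal1, did not separate the genotypes: it had 8.37, 2.06, 19.4, 23.9 and 13.3 CPM in knockout microglia and 21.2, 15.0, 9.74 and 26.2 CPM in control microglia. Its log2 change was -0.44 (standard error, SE, 0.62; edgeR adjusted p = 0.999), and a count over the whole gene does not show whether the floxed part was removed. Genotypes are therefore given as labelled. Xist, which is transcribed from the inactive X chromosome of females, had 12.9 CPM in knockout retina 1, 39.5 CPM in knockout microglia 1 and 40.8 CPM in control microglia 1, and at most 0.0789 CPM, in control retina 1, in the other 15 libraries. Read by this gene alone, the libraries held both sexes, and no other sex-linked gene was examined. Control retina 1 and control microglia 1 differed in Xist although they share a number.

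The ganglion cell markers were scarce in the fraction that should contain the ganglion cells. Their summed level was 13.8 to 43.0 CPM in knockout retina (median 20.6) and 6.96 to 90.5 CPM in control retina (median 29.7). Per length, the median level of the 10 genes was 0.255 to 0.384 CPM per kb of annotated exon in knockout retina and 0.0703 to 0.721 in control retina, while that of the 15 rod genes was 818 to 1106 CPM per kb in knockout retina and 1291 to 1673 in control retina. In microglia the same 10 genes summed to 25.4 to 66.7 CPM in knockouts (median 48.1) and 38.5 to 52.6 CPM in controls (median 43.4), and most of that was Rbpms in every library. Without Rbpms the sums were 10.9 to 41.0 CPM in knockout retina, 6.88 to 89.5 CPM in control retina, 1.44 to 20.9 CPM in knockout microglia and 6.05 to 18.4 CPM in control microglia. In RNA of bulk sorted cells, fewer ganglion cells and less RNA per ganglion cell cannot be told apart. Of the 10 markers, 7 to 8 had a count in each knockout retina library and 6 to 9 in each control retina library, and 6 in every knockout retina library and 3 to 8 in each control retina library reached 1 CPM.

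**Figure D1:**
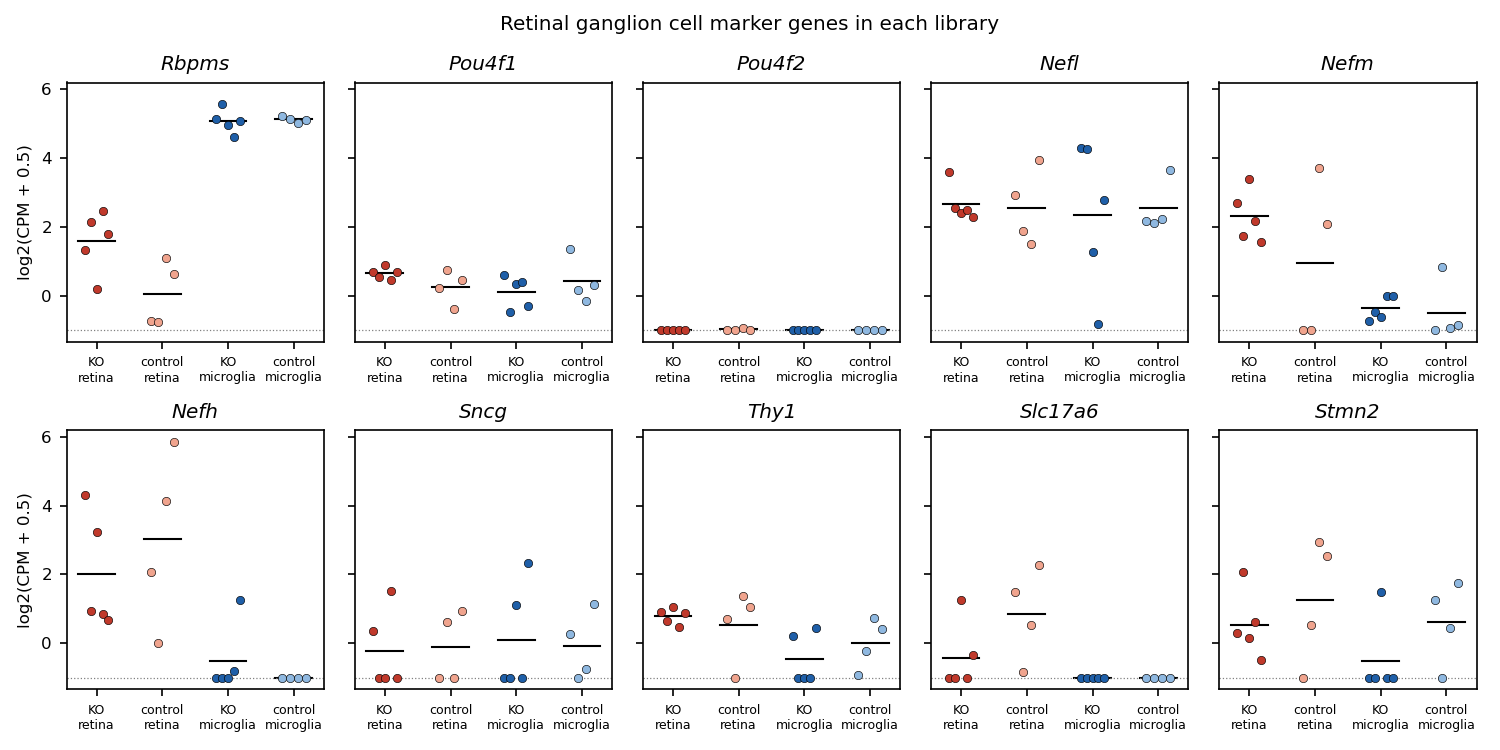
Level of each ganglion cell marker as log2(CPM + 0.5), one point per library, in knockout retina (5), control retina (4), knockout microglia (5) and control microglia (4). Horizontal bars are means of the log2 values and the dotted line marks 0 CPM. Rbpms lies higher in every microglia library than in any retina library, Pou4f2 lies on or next to the dotted line throughout, and Slc17a6 is above it in retina libraries only.

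Both POU factors were low. Pou4f2 (ENSMUSG00000031688, GRCm38 chromosome 8, 78433010 to 78436645, minus strand) received 1 read in all 18 libraries, in control retina 3, where it amounted to 0.0265 CPM, and it was too low to be tested. Pou4f1 (ENSMUSG00000048349, chromosome 14, 104461676 to 104467999, minus strand) had 1.10, 0.968, 1.35, 0.877 and 1.11 CPM in knockout retina and 0.671, 1.19, 0.265 and 0.878 CPM in control retina. In microglia it had 1.03, 0.217, 0.769, 0.806 and 0.311 CPM in knockouts and 2.05, 0.625, 0.397 and 0.736 CPM in controls. All 4 groups overlapped, and the highest single value of Pou4f1 was in a microglia library. The retina minus microglia difference of Pou4f1 was 0.80 on the log2 scale in knockouts (SE 0.46, edgeR adjusted p = 0.183) and -0.36 in controls (SE 0.66, adjusted p = 0.695). Without control microglia 1 the value in controls was 0.31.

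Rbpms (ENSMUSG00000031586, chromosome 8, 33782643 to 33929863, minus strand) was far higher in microglia than in retina. It had 1.99, 3.92, 0.648, 5.02 and 2.95 CPM in knockout retina, against 34.5, 47.5, 30.7, 24.0 and 33.6 CPM in knockout microglia. In controls it had 0.0986, 0.0849, 1.64 and 1.05 CPM in retina, against 37.0, 35.0, 31.7 and 34.2 CPM in microglia. The fractions did not overlap in either genotype. The log2 difference, retina minus microglia, was -3.53 in knockouts (SE 0.52, 95% interval -4.73 to -2.33, edgeR adjusted p = 0.000289) and -5.59 in controls (SE 1.04, interval -8.14 to -3.05, adjusted p = 0.00328). The mean retina level was 8.53% of the microglia level in knockouts and 2.08% in controls, while for the 15 microglia markers together this share was 0.0213% in knockouts and 0.0302% in controls.

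The 3 neurofilament genes did not share a pattern between the fractions. Nefl (ENSMUSG00000022055, chromosome 14, 68083863 to 68089095, plus strand) had 11.6, 5.37, 4.82, 5.17 and 4.42 CPM in knockout retina, against 19.1, 18.7, 1.90, 0.0672 and 6.32 CPM in knockout microglia. In controls it had 7.08, 3.17, 2.36 and 14.8 CPM in retina, against 4.03, 3.80, 4.21 and 12.2 CPM in microglia. The 4 groups of Nefl overlapped, and the widest spread was in knockout microglia, from 0.0672 to 19.1 CPM. Its log2 difference, retina minus microglia, was -0.54 in knockouts (SE 1.01, interval -2.86 to 1.78, edgeR adjusted p = 0.694) and 0.15 in controls (SE 0.73, interval -1.64 to 1.93, adjusted p = 0.889).

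Nefm (ENSMUSG00000022054, chromosome 14, 68082590 to 68124846, minus strand) was higher in retina in knockouts. It had 5.93, 2.84, 9.93, 4.02 and 2.44 CPM in knockout retina, against 0.0981, 0.217, 0.154, 0.504 and 0.492 CPM in knockout microglia, with no overlap. In controls it had 0, 0, 12.6 and 3.72 CPM in retina, against 0, 1.27, 0.0248 and 0.0526 CPM in microglia, and these groups overlapped. In knockouts Nefm passed the filter on low counts through retina alone, with 4 to 19 reads per library in knockout microglia. The log2 difference in knockouts was 4.11 (SE 0.70, interval 2.51 to 5.72, edgeR adjusted p = 0.000722), and 4.04 with an adjusted p of 0.0675 when all 18 libraries shared 1 estimate of the spread. In controls Nefm did not pass the filter on low counts. Nefl and Nefm lie on opposite strands and share 1108 annotated exon bases, and whether counting used strand is not given in the sources used here, so reads in that stretch cannot be told apart.

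Nefh (ENSMUSG00000020396, chromosome 11, 4938754 to 4948064, minus strand) reached the highest level per length of all the markers in retina, 14.4 CPM per kb in control retina 4. It had 19.5, 1.41, 8.94, 1.29 and 1.09 CPM in knockout retina and 3.73, 0.510, 17.2 and 57.4 CPM in control retina. In microglia it had 0, 0, 0, 0.0672 and 1.89 CPM in knockouts and 0 in all 4 controls, so that retina was higher throughout in controls while knockout microglia 5 overlapped with knockout retina. In controls Nefh passed the filter through retina alone and was called higher there (edgeR adjusted p = 0.0128), with 3604 reads in retina and 0 in microglia, at least 1129-fold higher when the 4 microglia libraries together are set to 3 counts. In knockouts the log2 difference was 4.04 (SE 1.87, adjusted p = 0.104). Without knockout microglia 5, which leaves 2 reads in knockout microglia, the adjusted p was 0.00423. Nefh then passed the filter through retina alone, so this value shows only how far the result rests on that library.

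Slc17a6 (ENSMUSG00000030500, chromosome 7, 51622006 to 51671119, plus strand) was counted in retina only. It had 0, 0, 1.87, 0 and 0.290 CPM in knockout retina and 2.29, 0.0566, 0.953 and 4.31 CPM in control retina, and 0 reads in all 9 microglia libraries. Of the 84 reads in knockout retina, 72 were in replicate 3, while all 4 control retina libraries held reads, 360 in total. Against 3 counts over the microglia libraries of the same genotype, Slc17a6 was at least 25.3-fold higher in retina in knockouts and at least 113-fold higher in controls. It did not pass the filter on low counts in the main fit of either comparison of fractions, so that its difference was not tested there. With all 18 libraries edgeR called it higher in retina, at adjusted p = 0.0403 in knockouts and 0.0334 in controls. In controls it was also called without the filter (0.0241) and without control retina 2 or any 1 control microglia library (0.00609 to 0.029). These fits set it against 0 reads in microglia, and the other fits did not call it.

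Stmn2, Thy1 and Sncg were low, and each had libraries at 0 in both fractions. Stmn2 (ENSMUSG00000027500, chromosome 3, 8509360 to 8561606, plus strand) had 0.735, 3.67, 0.622, 1.05 and 0.217 CPM in knockout retina, against 2.28 CPM in knockout microglia 3 and 0 in the other 4 knockout microglia libraries. In controls it had 0, 0.934, 7.20 and 5.35 CPM in retina, against 1.89, 0, 0.867 and 2.87 CPM in microglia. The fractions overlapped in both genotypes. Its log2 difference, retina minus microglia, was 1.47 in knockouts (SE 1.71, edgeR adjusted p = 0.512) and 1.24 in controls (SE 1.81, adjusted p = 0.618). Without knockout microglia 3, which leaves 0 reads in knockout microglia, the adjusted p in knockouts was 0.0039. Stmn2 then passed the filter through retina alone, so this value shows only how far the result rests on that library.

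Thy1 (ENSMUSG00000032011, chromosome 9, 44043384 to 44048579, plus strand) was even among the knockout retina libraries, at 1.39, 1.08, 1.56, 0.877 and 1.33 CPM, all of them above knockout microglia at 0.662, 0, 0, 0 and 0.855 CPM. In controls it had 1.12, 0, 2.09 and 1.57 CPM in retina, against 0.0233, 0.350, 1.16 and 0.842 CPM in microglia, and the groups overlapped. Its log2 difference did not pass in knockouts (2.03, SE 1.30, edgeR adjusted p = 0.229) or in controls (0.98, SE 1.37, adjusted p = 0.602). Sncg (ENSMUSG00000023064, chromosome 14, 34370274 to 34374789, minus strand) had 0 reads in 9 of 18 libraries. Its values above 0 were 0.787 and 2.34 CPM in knockout retina, 1.02 and 1.42 CPM in control retina, 1.64 and 4.56 CPM in knockout microglia, and 0.699, 0.0991 and 1.71 CPM in control microglia. The highest value of Sncg was in a microglia library, and the fractions overlapped in both genotypes.

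Between the fractions of knockouts, 7 of the 10 markers passed the filter and 2 were called, Nefm higher and Rbpms lower in retina, at edgeR adjusted p under 0.05. Over all 15211 genes tested there, 44.9% were called, 21.2% higher and 23.7% lower in retina. Between the fractions of controls, 7 passed the filter and 2 were called, Nefh higher and Rbpms lower, where 40.2% of 15188 genes were called, 17.4% higher and 22.8% lower. Nefm in knockouts and Nefh in controls passed the filter through retina alone, and Rbpms in controls through microglia alone. With edgeR the share of markers called was below that of all genes in both comparisons. In knockouts this depended on the tool. DESeq2 called 3 of the 7, Nefm and Nefh higher and Rbpms lower in retina, where it called 52.2% of all genes. With limma voom 5 of the 7 were called, Nefm, Nefh, Stmn2 and Thy1 higher and Rbpms lower, which is above its share of 56.4% of all genes. In controls DESeq2 and limma voom called the same 2 markers as edgeR, where DESeq2 called 47.1% and limma voom 49.5% of all genes. The median log2 difference, retina minus microglia, of the markers tested was 1.47 in knockouts, against 0.10 for all genes, and 0.15 in controls, against -0.02 for all genes. Among other cell classes of the retina, all 16 bipolar cell genes, 15 of 15 rod genes, 9 of 11 cone genes and 8 of 9 amacrine cell genes tested were called higher in retina in knockouts. In controls 8 of 16 bipolar cell, 15 of 15 rod, 7 of 11 cone and 3 of 9 amacrine cell genes tested were called higher. In each genotype 1 cone gene was lower. Of 11 Mueller glia and astrocyte genes 8 were higher and 1 lower in knockouts, and 7 higher and 1 lower in controls. Endothelial and mural genes had 2 of 8 higher in knockouts and 0 of 6 in controls, and horizontal cell genes 0 of 1 in knockouts and none tested in controls. The differences between these classes and the markers were not tested.

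**Figure D2:**
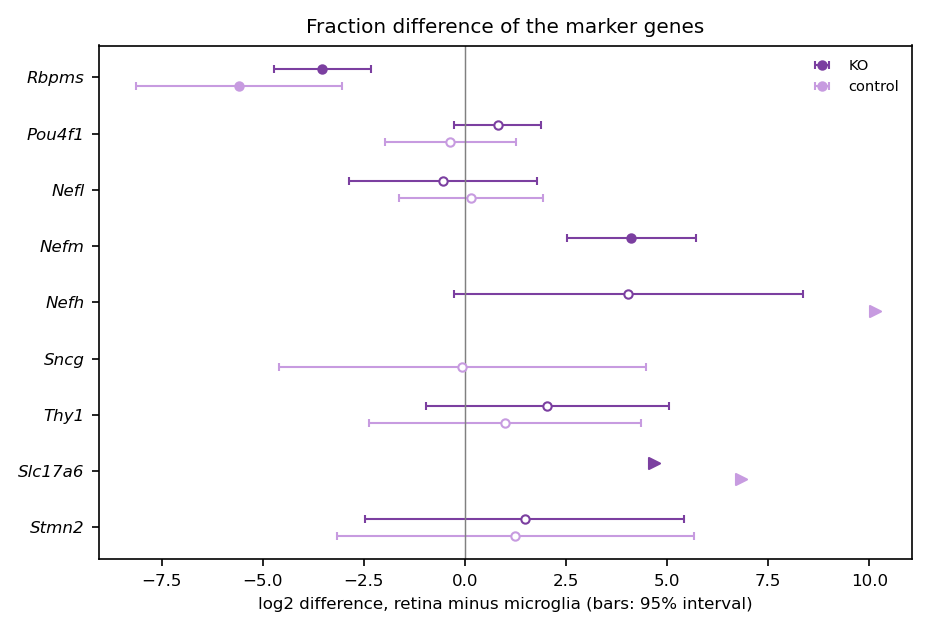
Difference between the fractions, as log2 of retina minus microglia, for the markers that could be tested, in knockouts (dark) and controls (light). Points are edgeR estimates with 95% intervals, filled where the adjusted p was under 0.05, and triangles are lower bounds against 3 counts where a microglia group had 0 reads (Nefh in controls, Slc17a6 in both genotypes). Rbpms lies left of 0 in both genotypes, and the intervals of Pou4f1, Nefl, Thy1, Stmn2 and Sncg include 0.

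The level of the markers in microglia relative to retina also differed from gene to gene. Among knockouts the mean level in microglia was 147% of that in retina for Nefl, 198% for Sncg, 58.0% for Pou4f1, 36.2% for Stmn2, 24.4% for Thy1, 6.08% for Nefh and 5.82% for Nefm. Among controls it was 88.4% for Nefl, 103% for Sncg, 127% for Pou4f1, 41.7% for Stmn2, 49.7% for Thy1 and 8.28% for Nefm. The same share was 6.40% in knockouts and 4.75% in controls for the rod genes, 7.92% in knockouts and 21.6% in controls for the bipolar cell genes, 9.00% in knockouts and 20.4% in controls for the cone genes, and 8.77% in knockouts and 16.3% in controls for the amacrine cell genes. Single libraries set several of these means. Among knockouts the share of Stmn2 was 0% without knockout microglia 3 and 69.6% without knockout retina 2. That of Nefh was 0.261% without knockout microglia 5 and 12.3% without knockout retina 1. That of Thy1 was 13.3% without knockout microglia 5, and that of Sncg 65.6% without the same library and 630% without knockout retina 4. Among controls Nefm ran from 0.632% without control microglia 2 to 27.2% without control retina 3, Sncg from 43.6% without control microglia 4 to 185% without control retina 4, Stmn2 from 27.2% without control microglia 4 to 67.1% without control retina 3, Nefl from 58.6% without control microglia 4 to 144% without control retina 4, and Pou4f1 was 78.1% without control microglia 1. Nefl, Sncg, Pou4f1 and Thy1 stayed above the share of the rod genes in both genotypes with any 1 library left out, and Nefm in knockouts ran from 4.78% to 7.70%. Whether RNA of retinal cells in the microglia fraction has a part in these levels was not tested.

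Compared per length, as CPM per kb of annotated exon, the order of the markers differed between the fractions. In knockout retina the mean level was highest for Nefl (1.85 ± 0.883, SD), followed by Nefh (1.61 ± 2.00), Nefm (0.870 ± 0.528), Sncg (0.734 ± 1.19), Rbpms (0.443 ± 0.258), Thy1 (0.416 ± 0.0895), Pou4f1 (0.231 ± 0.0381), Stmn2 (0.225 ± 0.247) and Slc17a6 (0.0799 ± 0.150). In control retina it was highest for Nefh (4.94 ± 6.55), followed by Nefl (2.03 ± 1.68), Sncg (0.716 ± 0.849), Nefm (0.706 ± 1.03), Stmn2 (0.602 ± 0.617), Thy1 (0.399 ± 0.297), Slc17a6 (0.352 ± 0.342), Pou4f1 (0.161 ± 0.0830) and Rbpms (0.109 ± 0.116). Neighbours in both orders differed by less than the larger of their SDs, except Thy1 and Pou4f1 in knockout retina, and in control retina the SD exceeded the mean for Nefh, Sncg, Nefm, Stmn2 and Rbpms. In microglia Rbpms came first, at 5.20 ± 1.31 CPM per kb in knockouts and 5.26 ± 0.334 in controls, followed by Nefl, with means of 2.73 in knockouts and 1.79 ± 1.21 in controls and a range of 0.0199 to 5.64 in knockouts. Ranked among all genes with a count, Nefl stood at percentile 63.0 in both retina groups and Nefh at 61.2 in knockout retina and 75.9 in control retina, whereas Rbpms stood at 45.3 in knockout retina and 27.2 in control retina, against 75.3 in knockout microglia and 74.9 in control microglia.

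The question put to these libraries by the design is whether retinal cells change when microglia are to lack Bmal1. For the ganglion cell markers, no difference between knockout and control retina passed the test. Of the 10, 9 were tested, 0 were called by edgeR at an adjusted p under 0.05, and 0 had an unadjusted p under 0.05, while 1.66% of 15332 genes were called, 1.34% higher and 0.326% lower. DESeq2 and limma voom each called 0 of the markers, where DESeq2 called 7.72% and limma voom 2.37% of all genes. The signs were mixed, with 4 above and 5 below 0, and the median log2 change was -0.03, against 0.00 for all genes tested.

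The estimate with the smallest p was that of Rbpms, whose retina levels are given above. They averaged 2.91 ± 1.69 CPM in knockout retina and 0.717 ± 0.762 CPM in control retina (SD), a log2 change of 1.96 (SE 1.03, 95% interval -0.47 to 4.39, edgeR adjusted p = 0.457). Slc17a6 was lower on average in knockout retina, with a log2 change of -2.20 (SE 1.83, interval -6.52 to 2.13, adjusted p = 0.704). Nefh averaged 6.44 ± 8.01 CPM in knockout retina and 19.7 ± 26.2 CPM in control retina, a log2 change of -1.67 (SE 1.28, interval -4.69 to 1.36, adjusted p = 0.670). Stmn2 averaged 1.26 ± 1.38 CPM in knockout retina and 3.37 ± 3.46 CPM in control retina, a log2 change of -1.47 (SE 1.40, adjusted p = 0.753). In each case the intervals spanned 0, and every marker overlapped between the genotypes.

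The remaining estimates in retina lay closer to 0. Nefl averaged 6.27 ± 2.98 CPM in knockout retina and 6.85 ± 5.69 CPM in control retina, a log2 change of -0.18 (SE 0.62, 95% interval -1.65 to 1.30, edgeR adjusted p = 0.957). Thy1 averaged 1.25 ± 0.268 CPM in knockout retina and 1.20 ± 0.890 CPM in control retina, a log2 change of 0.01 (SE 1.05). For Nefm the means were 5.03 ± 3.06 CPM in knockout retina and 4.08 ± 5.94 CPM in control retina, a log2 change of 0.25 (SE 1.63). Pou4f1 averaged 1.08 ± 0.178 CPM in knockout retina and 0.751 ± 0.388 CPM in control retina, a log2 change of 0.48 (SE 0.53), and the log2 change of Sncg was -0.03 (SE 2.08). The signs of Nefl, Thy1, Nefm and Sncg turned when single libraries were left out. A genotype difference in retina was therefore not detectable for these 9 markers at this depth and number of libraries, which does not show that they were alike. In the authors' deposited table for the same comparison, 7 of the 10 markers are listed and 0 have an adjusted p under 0.05, where 744 of 13330 genes do, and Rbpms has a log2 change of 1.96 with an adjusted p of 0.516.

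**Figure D3:**
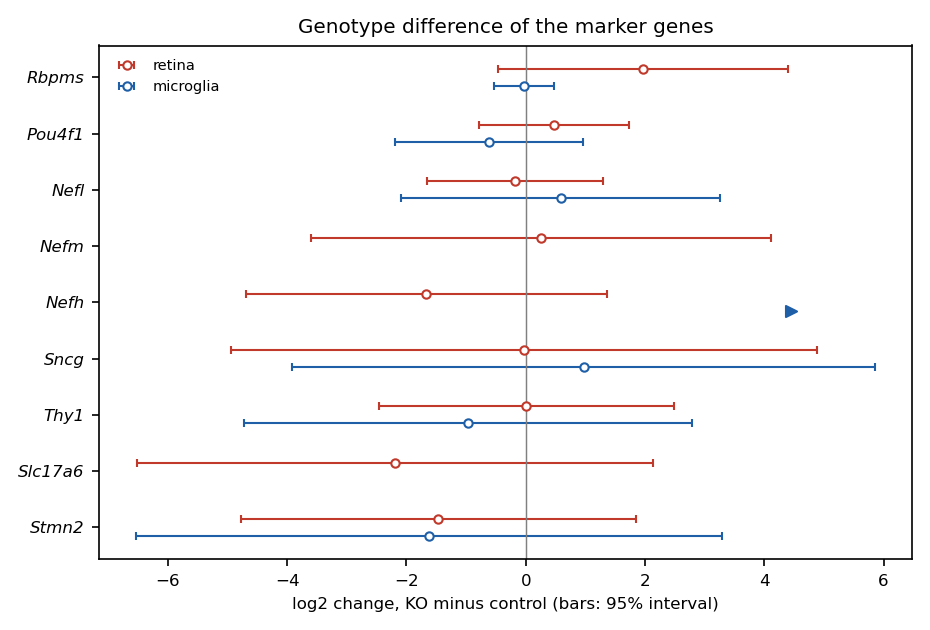
Difference between the genotypes, as log2 of knockout minus control, for each marker tested in retina (red) and microglia (blue), as edgeR estimates with 95% intervals. Open points mark an adjusted p of 0.05 or more, which holds for every point. The triangle is the lower bound for Nefh in microglia, where controls had 0 reads, and carries no test. All intervals include 0, and in microglia that of Rbpms is the narrowest.

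In microglia, where the deletion was aimed, 6 of the 10 markers passed the filter and 0 were called by edgeR, 0 also at an unadjusted p under 0.05, and 0 by DESeq2 and by limma voom, while edgeR called 0.115% of 14835 genes, 0.101% higher and 0.0135% lower, DESeq2 1.60% and limma voom 0.175%. Rbpms averaged 34.1 ± 8.60 CPM in knockout microglia and 34.5 ± 2.19 CPM in control microglia, a log2 change of -0.03 (SE 0.21, 95% interval -0.53 to 0.47, edgeR adjusted p = 0.999). It was the marker with the most reads and the narrowest interval in microglia. The log2 change of Nefl was 0.58 (SE 1.13, interval -2.09 to 3.26) and that of Pou4f1 -0.62 (SE 0.67), or 0.082 without control microglia 1. Nefh had 75 reads in knockout microglia, 73 of them in replicate 5, and 0 in control microglia, at least 21.8-fold higher in knockouts with 3 counts over the control group and with no test.

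Whether the genotype difference itself differed between retina and microglia was tested over all 18 libraries. Of the markers, 9 passed the filter and 0 were called by edgeR, DESeq2 or limma voom, where edgeR called 0.469% of 18128 genes, 0.392% higher and 0.0772% lower, DESeq2 6.01% and limma voom 0.800%, and 1 had an unadjusted p under 0.05. That was Nefh, with 75 reads in knockout microglia and 0 in control microglia (unadjusted p = 0.0154, edgeR adjusted p = 0.261). Slc17a6 was among the 9, but with 0 reads in every microglia library its SE could not be estimated, so its lack of a call decides nothing. For Rbpms the difference of the 2 genotype changes was 2.03 on the log2 scale (SE 0.98, adjusted p = 0.41).

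Slc17a7, Sncb, Stmn3 and Ina, picked from 13 relatives of the markers, were higher per length in knockout retina than the marker beside each. Other retinal neurons also use them. The median of all 13 relatives was 0.836 to 7.86 CPM per kb in knockout retina, with 1 to 2 of them at 0 in each library. In control retina it was 0.343 to 3.38 CPM per kb, with 3 to 6 at 0. In knockout retina Slc17a7 averaged 819 ± 53.5 CPM per kb beside 0.0799 ± 0.150 for Slc17a6, Sncb 118 ± 7.37 beside 0.734 ± 1.19 for Sncg, Stmn3 54.0 ± 5.42 beside 0.225 ± 0.247 for Stmn2, and Ina 16.9 ± 2.66 beside 1.85 ± 0.883 for Nefl. Slc17a7, the glutamate transporter VGLUT1 of photoreceptors and bipolar cells, averaged 4414 ± 289 CPM in knockout retina and 4588 ± 726 CPM in control retina, against 287 ± 106 CPM in knockout microglia and 237 ± 70.6 CPM in control microglia. Its log2 difference, retina minus microglia, was 3.96 in knockouts (edgeR adjusted p = 6.59e-07) and 4.25 in controls (adjusted p = 1.12e-05). Sncb, beta-synuclein, averaged 252 ± 15.8 CPM in knockout retina and 155 ± 15.5 CPM in control retina, with log2 differences from microglia of 3.79 in knockouts (adjusted p = 6.67e-05) and 3.28 in controls (adjusted p = 4.97e-05). Stmn3, another stathmin, averaged 61.4 ± 6.16 CPM in knockout retina and 36.0 ± 14.2 CPM in control retina, with log2 differences from microglia of 3.54 in knockouts (adjusted p = 0.0289) and 2.04 in controls (adjusted p = 0.014, and 0.134 with all 18 libraries in 1 fit). In knockouts the adjusted p was 0.0504 to 0.0625 without knockout retina 1, 3, 4 or 5 or knockout microglia 1, 4 or 5. Ina was called in neither genotype, with a log2 difference of 2.22 in knockouts (adjusted p = 0.0868, and 0.0114 to 0.031 with DESeq2, limma voom or without knockout microglia 2 or 5) and 1.09 in controls (adjusted p = 0.429). Stmn1, another stathmin, was lower in retina in knockouts (-0.88, adjusted p = 0.0122) and at 0.32 in controls (adjusted p = 0.585). The difference between a marker and its relative was not tested.

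**Figure D4:**
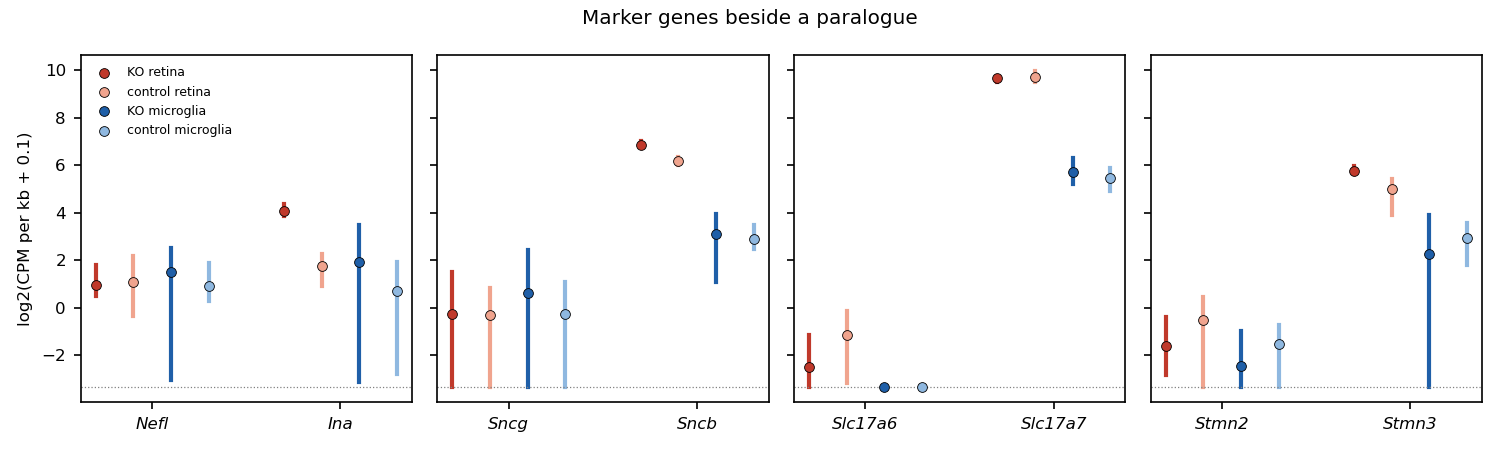
Mean level, as log2(CPM per kb of exon + 0.1), of 4 markers beside a gene of the same family in knockout retina, control retina, knockout microglia and control microglia. Vertical bars run from the lowest to the highest library and the dotted line marks 0. Slc17a7, Sncb and Stmn3 lie above Slc17a6, Sncg and Stmn2 in all 4 groups, and Ina lies above Nefl in knockout retina, with ranges that do not meet there.

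Of 13 relatives of the markers, 10 were tested between knockout and control retina, 2 rose with edgeR, Ina and Sncb, and 0 fell, at a list median log2 change of 0.89, against 0.00 for all genes tested. DESeq2 called 3 of these relatives higher and limma voom 2, with 0 lower. Of all genes in this comparison edgeR called 1.66%, DESeq2 7.72% and limma voom 2.37%. Ina encodes alpha-internexin, a neurofilament partner protein. It had 47.6 to 66.3 CPM in knockout retina (mean 54.8 ± 8.63) and 5.83 to 15.3 CPM in control retina (mean 10.8 ± 4.81), with no overlap, and its log2 change was 2.29 (SE 0.32; edgeR, adjusted p = 0.0135). Sncb had 235 to 277 CPM in knockout retina and 140 to 175 CPM in control retina, also without overlap, a log2 change of 0.65 (SE 0.10, adjusted p = 0.0189, and 0.0535 without knockout retina 3). Both calls were lost when the mean rod level was added as a covariate, with log2 changes of 1.10 for Ina and 0.58 for Sncb (adjusted p = 0.999 each), a fit in which 0 of all genes were called. The summed rod level did not overlap between knockout retina (141556 to 175010 CPM) and control retina (176934 to 259530 CPM). The covariate thus runs together with genotype, the fit cannot tell them apart, and the lost calls decide nothing. In microglia 7 of the relatives were tested and 1 rose with edgeR, which called 0.115% of all genes there. It was Stmn1, a stathmin of dividing cells, which averaged 55.5 ± 12.3 CPM in knockouts and 15.0 ± 3.48 CPM in controls, a log2 change of 1.88 (SE 0.25, adjusted p = 0.0304). That call was lost without knockout replicate 2, 3 or 4 or any one of the 4 controls (adjusted p up to 0.148), without the filter on low counts (0.055) and with the replicate number as a block (0.386).

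Wider lists of genes used in ganglion cells were set against the 1.66% of all genes that edgeR called between knockout and control retina. Of 16 transcription factors, 8 were tested, 1 rose and 0 fell (median log2 change 0.73). The one that rose was Isl1, a LIM-homeodomain factor of ganglion cells that bipolar and amacrine cells also use, with 90.3 to 137 CPM in knockout retina and 11.1 to 39.0 CPM in control retina, without overlap. Its log2 change was 2.09 (SE 0.37) with an edgeR adjusted p of 0.0304, which was 0.0606 to 0.0772 without knockout replicate 1, 2, 3 or 4 or control replicate 3. Of 16 other ganglion cell genes, 8 were tested and 0 were called by edgeR (median 0.87, 3 with an unadjusted p under 0.05), while DESeq2 and limma voom each called 1 higher. The smallest p there was that of Igf1, a growth factor gene that marks a ganglion cell subtype, which averaged 21.8 ± 5.57 CPM in knockout retina and 5.24 ± 2.81 CPM in control retina, a log2 change of 2.00 (SE 0.44, adjusted p = 0.0606, and 0.0287 without control retina 4). Of 20 axon and cytoskeleton genes, 18 were tested, 2 rose with edgeR, Ina and the cell adhesion gene Nrcam, and 0 fell (median 0.65). DESeq2 called 5 of these axon genes higher and 1 lower, and limma voom 3 higher and 1 lower. Among the transcription factors DESeq2 called 2 higher and limma voom 1, with 0 lower. Over all genes DESeq2 called 7.72% and limma voom 2.37%. Nrcam averaged 95.6 ± 23.7 CPM in knockout retina and 26.8 ± 10.5 CPM in control retina, a log2 change of 1.78 (SE 0.31, adjusted p = 0.0283, lost without knockout replicate 1, 2, 3 or 4 or control replicate 2 or 3, up to 0.0653). Adding the mean rod level as a covariate gave log2 changes of 0.63 for Isl1 and 0.72 for Nrcam (adjusted p = 0.999 each). Here too the rod level could not be told apart from genotype.

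Genes of axon injury and of trophic support showed no edgeR call in retina. Of 18 injury response genes, 13 were tested and 0 were called by edgeR, with 3 at an unadjusted p under 0.05 and a median log2 change of -0.12. DESeq2 called 1 of them higher and 1 lower, and limma voom 0. Atf3, a stress transcription factor, averaged 11.6 ± 3.90 CPM in knockout retina and 27.7 ± 8.53 CPM in control retina, or -1.30 on the log2 scale (SE 0.35, with an edgeR adjusted p of 0.103 and a DESeq2 adjusted p of 0.0108). Hrk, a death gene of the BH3-only family, had 319 reads in knockout retina and 5 in control retina (adjusted p = 0.0845). Of 15 neurotrophin and survival genes, 12 were tested and 0 were called by edgeR, with 4 at an unadjusted p under 0.05 and a median of 0.31, while DESeq2 called 2 higher and limma voom 0. Ntrk2, the receptor of BDNF, averaged 94.2 ± 9.41 CPM in knockout retina and 41.2 ± 20.6 CPM in control retina, a log2 change of 1.14 (SE 0.34, adjusted p = 0.137, and 0.0138 with DESeq2). In microglia edgeR called 0 genes of these 2 lists, with 1 injury gene and 2 survival genes at an unadjusted p under 0.05, while DESeq2 called 1 injury gene higher and 1 survival gene lower and limma voom 0. For the transcription factors, the other ganglion cell genes and the axon genes in microglia, edgeR, DESeq2 and limma voom each called 0, and 0 had an unadjusted p under 0.05.

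The other cell classes moved in retina beside these gene groups. Of 16 bipolar cell genes, 9, Isl1 among them, rose in knockout retina with edgeR and 0 fell (median log2 change 1.78), 4 of 11 cone genes rose and 0 fell (median 1.62), and 6 of 15 rod genes fell and 0 rose (median -0.59). DESeq2 called 14 bipolar cell and 7 cone genes higher, and 13 rod genes and 1 cone gene lower. With limma voom 11 bipolar cell and 4 cone genes were higher and 7 rod genes lower. Of 16 amacrine cell genes, 12 were tested and 1 rose, the glycine transporter gene Slc6a9, with 178 to 244 CPM in knockout retina and 63.5 to 133 CPM in control retina (log2 change 1.16, edgeR adjusted p = 0.038). It passed without control retina 3, and with any one of the other 8 libraries left out its adjusted p was 0.0548 to 0.0923. Of 13 Mueller glia and astrocyte genes 11 were tested and edgeR called 0 (6 with an unadjusted p under 0.05, median 0.64), where DESeq2 called 2 higher and limma voom 0. Of 11 endothelial and mural genes 10 were tested and 1 rose, the endothelial receptor gene Tie1. It had 2154 reads in knockout retina and 0 in control retina, and so passed the filter through knockout retina alone. Of 5 horizontal cell genes and 15 microglia genes 2 each were tested, and edgeR, DESeq2 and limma voom called 0, with 0 at an unadjusted p under 0.05. The number of genes with a count averaged 19235 in knockout retina and 17640 in control retina. With all 18 libraries in 1 fit the calls of Ina, Sncb, Isl1, Nrcam and Slc6a9 were lost (adjusted p 0.336 to 0.532). The part of these differences in the changes of Ina, Sncb, Isl1 and Nrcam was not tested, since the fit with the rod level given above cannot separate that level from genotype.

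**Figure D5:**
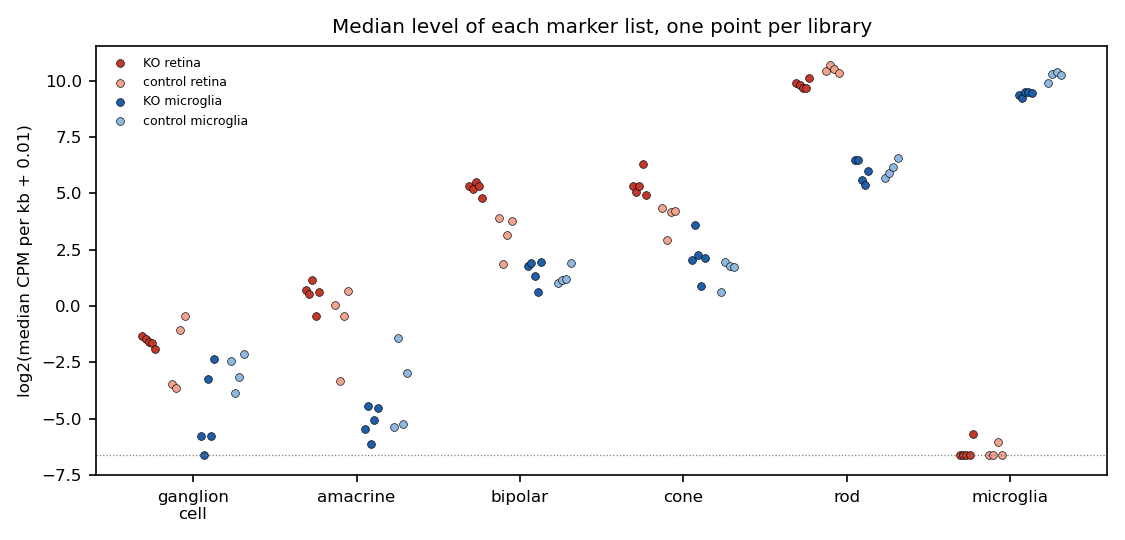
Median level of each marker list, as log2(median CPM per kb of exon + 0.01), one point per library and group, for genes of ganglion cells (the 10 markers), amacrine cells, bipolar cells, cones, rods and microglia. The dotted line marks 0. The ganglion cell markers lie lowest of the 5 neuronal lists shown in every retina library, at 0.255 to 0.384 CPM per kb in knockout retina and 0.0703 to 0.721 in control retina, and the microglia markers lie on or near 0 in every retina library. The horizontal cell list, not shown, was lower still, at 0 to 0.155 CPM per kb in knockout retina and 0 to 0.00163 in control retina.

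Across the 9 retina libraries most pairs of markers were weakly related. For the 7 markers with a mean of at least 1 CPM there, the 21 pairwise Pearson correlations of log2(CPM + 0.5) ran from -0.50 to 0.73, with a median of 0.32. The 6 pairs over 0.5 included Nefm with Thy1 (0.73), Nefh with Thy1 (0.66) and Nefh with Slc17a6 (0.63), and the lowest pair was Rbpms with Slc17a6. These points share library depth and the 2 genotypes, and they are a description of 9 libraries. Zero counts beside well counted libraries were common at such levels in general. Among all genes with a group mean of 0.3 to 10 CPM, 36.7% in knockout retina and 47.5% in control retina had a library at 0 and another with at least 30 reads, which held for 2 of 9 and 4 of 8 markers in that range, and in microglia for 50.6% of genes and 4 of 6 markers in knockouts and 35.0% of genes and 3 of 6 markers in controls.

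The genes with the most similar pattern over the same 9 libraries, out of 15331 compared, were not other ganglion cell markers. For Rbpms they were Plscr4 (Pearson r = 0.97), Capn2 (0.95) and Fndc10 (0.93), and for Nefl C230062I16Rik (0.95), Efcab2 (0.90) and Mn1 (0.90). For Nefm they were Prox1os (0.97), Kcnab3 (0.97) and Cpeb2 (0.96), for Nefh Gm37632 (0.95), Dis3l2 (0.94) and Gm12710 (0.94), and for Thy1 Gmeb2 (0.98), Selenoo (0.97) and Ern1 (0.97). For Slc17a6 they were Pdik1l (0.95), Gm15952 (0.94) and Gm37940 (0.93), and for Stmn2 B3galt4 (0.93), Rplp0-ps1 (0.91) and Plcb1 (0.91). With 9 libraries and this many genes, values this high are the top of a long list and carry no test.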

How the data were processed

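RNA of sorted cells was taken up with an RNeasy Plus Micro kit, amplified with a SMARTer Ultra Low kit and read in pairs on a NovaSeq X Plus, per the labels' protocols. Few starting molecules were multiplied this way, so counts are not independent molecules and limits given for a count of 0 cover counting error only. The authors deposited raw counts per gene, whole numbers without normalization, for all 18 libraries. The submitters' processing notes name DRAGEN, STAR 2.7.9a, Subread, featureCounts, edgeR, limma and GRCm38 without a role. The authors also deposited tables for the 2 knockout comparisons with log2 changes, a likelihood ratio score and p-values, per the file headers.

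Of 55774 lines, 287 repeated an Ensembl identifier with identical counts, leaving 55487 genes, of which 55227 were found in GENCODE M21 for positions and exon lengths. Of the sample columns 0 were unused and 0 pairs of libraries were identical. Counts were tested with edgeR 4.0.16 (R 4.3.3; filterByExpr by group, TMM factors of 0.922 to 1.11, quasi-likelihood test) with Benjamini-Hochberg adjustment over all genes tested, which covers every adjusted p given without another tool's name. Genotypes were compared within each fraction (9 libraries each), fractions within each genotype (10 and 8), and the interaction over 18. An SE is the size of the log2 estimate over the square root of F. CPM use TMM factors over 18 libraries, and percentiles count genes with a count and a length. The fits were tested on simulated data.

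The markers and gene lists were chosen with earlier results of these data known. Genes named were all markers, up to 4 per list with the smallest p between the retina groups, genes of the ganglion cell lists past the threshold there, and for each marker at 1 CPM or more the 3 genes with the highest r. Stmn1 and the comparisons of relatives between fractions were chosen after values were seen. Alternatives were DESeq2 size factors, no filter, 1 CPM in 4 libraries, DESeq2 1.42.0, limma 3.58.1 (voom), the replicate number as a block, a fit over all 18 libraries, the mean rod level as a covariate in retina, and leaving out each library.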

Additional observations from a re-analysis of the deposited data

Results flagged for a closer look

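In 34 groups of 4 or 5 libraries in which a marker varied, 8 had a library far from the others, where chance alone puts about 1 group in 20 past the limit (Dixon's 95% critical value) if values are normally distributed. These are not, and a group with 1 counted library beside zeros passes by construction, as Pou4f2 in control retina and Stmn2 in knockout microglia did. In knockout retina, Nefl had 11.6 CPM in replicate 1, against a next highest value of 5.37. Stmn2 had 3.67 CPM in knockout retina 2, against 1.05, and Slc17a6 had 1.87 CPM in knockout retina 3, against 0.290. In control retina, Pou4f2 had 0.0265 CPM in replicate 3, a single read, against 0. In knockout microglia, Nefh had 1.89 CPM in replicate 5, against 0.0672, and Stmn2 had 2.28 CPM in replicate 3, against 0. In control microglia, Nefl had 12.2 CPM in replicate 4, against 4.21, and Nefm had 1.27 CPM in replicate 2, against 0.0526. All 8 were the highest library of their group, and they fell in 8 different libraries.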

How the results depend on the processing

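The number of ganglion cell markers called was 0 for both genotype comparisons and for the interaction under every alternative run. Between the fractions it was 2 in each genotype with edgeR, 3 with DESeq2 and 5 with limma voom in knockouts, 3 without the filter or with all 18 libraries and 1 with a filter of 1 CPM in 4 libraries in controls, and 2 to 3 in each genotype when single libraries were left out. Where controls had 3, the added marker was Slc17a6. With all 18 libraries the markers called in knockouts were Rbpms and Slc17a6, without Nefm. Signs turned only for markers and for Arntl where no call was made. Between knockout and control retina, the value of Sncg was 0.020 with DESeq2 size factors, DESeq2 or all 18 libraries and 0.47 with the replicate block, that of Stmn2 0.25 with limma voom and 0.025 with the block, and that of Nefl 0.24 with the block. With the rod level as a covariate, Nefm and Thy1 were at -0.95 each and Arntl at 0.33. For Nefl the microglia change was -0.49 with limma voom and -0.082 with the block, and the fraction difference 0.78 with limma voom and 0.37 with the block in knockouts and -0.019 with the block in controls. Leaving out 1 library gave ranges in retina of -0.53 to 0.55 for Nefl, -0.16 to 1.98 for Nefm, -0.43 to 0.84 for Sncg and -0.39 to 0.44 for Thy1, in microglia of -0.88 to 0.082 for Pou4f1 and -0.18 to 0.070 for Rbpms, and between the fractions of controls of -0.57 to 0.73 for Nefl and -0.67 to 0.31 for Pou4f1. The cause was not tested. Over all genes, the retina count of 255 was 120 without the filter, 1184 with DESeq2, 0 with the rod covariate and 96 to 342 without single libraries. The microglia count of 17 was 8 without the filter, 237 with DESeq2, 26 with limma voom, 32 with all 18 libraries and 4 to 21 without single libraries, and the interaction count of 85 was 1090, 145 and 51 to 143 with DESeq2, limma voom and single libraries left out. The replicate block took these counts to 0, 2 and 9 and the fraction counts to 6350 in knockouts and 4436 in controls, and ended the calls of Ina, Sncb, Isl1, Nrcam and Slc6a9 (adjusted p 0.125 to 0.141) in retina and of Stmn1 in microglia (0.386), while it changed no count of markers called. Same-numbered libraries did not deviate together (17 pairs, r from -0.06 to 0.06, 6 best with their own number), so the numbers were not taken to pair samples. With all 18 libraries the calls of the 5 retina genes were also lost (adjusted p 0.336 to 0.532). Depth limits values near 3 counts, 0.0592 to 0.101 CPM, such as those of Pou4f2. Zeros of Sncg stand beside libraries with 30 to 176 reads, and the part of depth in them was not tested.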

Other observations

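Several genes that define single ganglion cell types or stages, named here after their values were seen, were at or near 0. Eomes, a factor of melanopsin ganglion cells, had 0 reads in the 9 retina libraries, and Opn4, melanopsin itself, had 2 reads in knockout retina and 2 in control retina. Atoh7, the factor that starts ganglion cell development, had 114 reads in knockout retina and 0 in control retina, with 2 of the 5 knockout libraries at 0. Chrna6 and Chrnb3, nicotinic receptor subunits listed with the ganglion cell genes, had higher levels: Chrna6 averaged 53.0 ± 27.3 CPM in knockout retina and 30.2 ± 26.6 CPM in control retina, against 0.746 CPM in knockout microglia and 1.73 CPM in control microglia, and Chrnb3 averaged 15.8 ± 6.59 CPM in knockout retina and 4.37 ± 5.67 CPM in control retina. Tubb3, a neuronal tubulin used as a ganglion cell stain, averaged 38.1 ± 10.6 CPM in knockout retina and 31.5 ± 19.3 CPM in control retina, against 2.46 CPM in knockout microglia and 1.10 CPM in control microglia. In the tubulin gene Tubb2a, knockout retina averaged 153 ± 36.9 CPM and control retina 59.1 ± 23.8 CPM, or 1.33 on the log2 scale (SE 0.29; edgeR, adjusted p = 0.0617, and 0.0262 without control retina 4). The adjusted p of Tubb2a was 0.000224 with DESeq2, 0.0408 with limma voom and 0.00909 with edgeR over all 18 libraries. Of 8 alternatives that kept all libraries 3 passed, and of 9 libraries left out singly 1 did.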
